A study of Homo sapiens with 4 samples.

Results

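Open chromatin around 10 target genes of canonical Wnt signalling that are used as its markers in liver was read from ATAC-seq peak lists of Huh7 cells. The genes were LGR5, AXIN2, NKD1, ZNRF3, RNF43, TBX3, GLUL, TCF7, LEF1 and NOTUM. A peak belonged to the set if the deposited nearest-gene column named one of these genes or if the peak's centre lay within 50 kb of one of their transcription start sites (TSS). Peaks of the 4 lists that overlapped by at least 1 bp were merged into regions. The set held 10 of the 18520 protein-coding genes with a usable TSS, and 60 of the 69838 regions.

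Huh7 is an established human liver cancer line, and ATAC-seq marks accessible DNA by inserting sequencing adapters with a transposase. ARID1A is a subunit of the BAF chromatin remodeller that contacts DNA. The cells expressed a short hairpin RNA that targets its transcript (shARID1A) or a control hairpin (shControl). The groups were shARID1A cells in 100 nM rapamycin, an mTORC1 inhibitor, for 6 h, shARID1A cells in DMSO, shControl cells in 100 nM rapamycin for 6 h, and shControl cells in DMSO. Each group was 1 library from 50000 cells, so the spread between cultures is unknown and no p-value was computed. The labels do not give the number of hairpins or clones, and the level of ARID1A in these cells was not analysed here.

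Wnt ligands bind Frizzled and LRP receptors, which stops the destruction complex from degrading β-catenin, and β-catenin then activates genes together with TCF/LEF factors on DNA. In liver this programme is highest in the hepatocytes next to the central vein, which express glutamine synthetase. Many of its targets are negative feedback regulators, among them AXIN2, NKD1, ZNRF3, RNF43 and NOTUM, so their transcription is widely used as a readout of pathway activity. A peak shows that DNA was accessible, and transcript levels were not analysed here.

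The lists held 44760 peaks in shARID1A rapamycin, 45700 in shARID1A DMSO, 49783 in shControl rapamycin and 52192 in shControl DMSO, and the read depth behind them was unknown. Peak numbers ran without a break in shARID1A rapamycin and shControl DMSO, but 12.7% of the numbers were skipped in shARID1A DMSO and 2.15% in shControl rapamycin. The numbers of shARID1A DMSO ran to 52366, above the 52192 of shControl DMSO, although its list was shorter. A peak absent from a list with skipped numbers may have been listed under one of them, and this is stated where it touches a region below. Of 8 hepatocyte markers, 6 had a peak within 1 kb of a TSS in shARID1A rapamycin and 5 in each of the other lists. APOA1, APOB, SERPINA1, HNF4A and FOXA2 had one in every list, whereas ALB and AFP had none in any list. None of 4 endothelial markers with a TSS had a promoter peak, against 2 of 4 stellate cell and fibroblast markers (COL1A1 and COL1A2) in every list. Of 5 leukocyte markers, CD14 had one in every list and CD3D in shControl DMSO alone.

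The promoter sequences of 4 of the genes are shown as examples of windows that peaks covered in every list, in 1 list and in none. Windows from 250 bases before to 50 bases after an annotated start are given on the sense strand (RefSeq, GRCh38.p14), with the CG dinucleotides in capitals. RefSeq windows matched GLUL, RNF43, TCF7 and LEF1. GLUL, at chr1:182391741-182392040 (minus strand), and RNF43, at chr17:58417485-58417784 (minus strand), are shown because peaks covered all 300 bases of both windows in every list. TCF7, at chr5:134115363-134115662 (plus strand), is shown because all 300 bases were covered in shARID1A rapamycin and 0 in the other lists. LEF1, at chr4:108166252-108166551 (minus strand), is shown because no list had a peak over any of its bases. The LEF1 window belongs to an internal start at 108166301, while the gene's 5′ end is at 108168932. The TCF7 window also belongs to an internal start, at 134115613, with the 5′ end at 134108218.
GLUL: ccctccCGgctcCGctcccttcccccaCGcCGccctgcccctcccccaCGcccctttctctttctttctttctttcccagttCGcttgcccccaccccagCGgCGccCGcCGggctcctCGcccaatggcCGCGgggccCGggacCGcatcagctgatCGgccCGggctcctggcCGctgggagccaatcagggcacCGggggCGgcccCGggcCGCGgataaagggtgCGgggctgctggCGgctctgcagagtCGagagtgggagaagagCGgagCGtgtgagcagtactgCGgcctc
RNF43: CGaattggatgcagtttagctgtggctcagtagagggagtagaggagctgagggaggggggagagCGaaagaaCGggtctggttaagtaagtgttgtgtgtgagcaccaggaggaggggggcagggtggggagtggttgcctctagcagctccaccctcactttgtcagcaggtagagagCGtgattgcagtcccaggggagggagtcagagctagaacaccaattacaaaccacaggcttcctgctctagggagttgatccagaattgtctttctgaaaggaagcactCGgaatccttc
TCF7: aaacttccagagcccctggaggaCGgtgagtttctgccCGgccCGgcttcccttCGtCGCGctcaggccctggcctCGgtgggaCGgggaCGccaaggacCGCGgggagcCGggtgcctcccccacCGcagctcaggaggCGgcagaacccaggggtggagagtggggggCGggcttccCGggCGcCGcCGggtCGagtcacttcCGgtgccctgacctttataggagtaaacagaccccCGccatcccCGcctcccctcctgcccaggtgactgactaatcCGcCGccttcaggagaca
LEF1: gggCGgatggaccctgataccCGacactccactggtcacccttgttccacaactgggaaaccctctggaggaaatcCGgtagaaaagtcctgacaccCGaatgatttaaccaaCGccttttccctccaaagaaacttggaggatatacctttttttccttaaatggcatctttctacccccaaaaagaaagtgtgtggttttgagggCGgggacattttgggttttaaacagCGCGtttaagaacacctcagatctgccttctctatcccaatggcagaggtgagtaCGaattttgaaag
GLUL held 29 CG dinucleotides in 300 bases, with a ratio of observed to expected CG of 0.743, and TCF7 held 25 with a ratio of 0.688. LEF1 held 9, with a ratio of 0.545, and RNF43 held 5, with a ratio of 0.250. Over all 34943 RefSeq windows the median ratio was 0.577. The printed RNF43 window was thus covered in every list with fewer CG dinucleotides than the LEF1 window, which was covered in none. Windows not printed were 1 more each of RNF43, TCF7 and GLUL. The RNF43 one (start 58402721) held 0 CG and the TCF7 one (start 134123618) held 3, and no list covered either. The GLUL one (start 182391341) held 25 and was covered in full in every list. The letters CTTTGAT and CTTTGAA, forms of the core bound by TCF/LEF factors, were searched on both strands (ATCAAAG and TTCAAAG on the other), and they cannot start at the same base. CTTTGAT was present in 2.63% and CTTTGAA in 4.44% of all windows, and either in 6.88%. Neither was present in the 7 windows of GLUL, RNF43, TCF7 and LEF1, which says only that these letters are not in these windows.

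Most of the 10 genes had a promoter peak in every list. A gene counted as having a promoter peak if a peak overlapped the 1 kb on either side of any of its TSS. This held for 8 members in shARID1A rapamycin, 9 in shARID1A DMSO, 10 in shControl rapamycin and 8 in shControl DMSO. Among all 18520 genes the share was 70.2% in shARID1A rapamycin, 71.1% in shARID1A DMSO, 70.5% in shControl rapamycin and 70.0% in shControl DMSO. The same 8 members (80%), all but LEF1 and NOTUM, had a promoter peak in every list, as did 66.8% of all genes. With a half-width of 500 bp TCF7 had a promoter peak in shARID1A rapamycin alone, and in the stronger 50% of each list NKD1 had none. The presence of a promoter peak differed between lists for 2 members (20%) and for 7.45% of all genes.

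The authors' score set the order of peaks in a list, and a rank is given as a percent of the list's length, in which a small value is a strong peak. The 8 promoters found in every list had a median rank of 22.7% in shARID1A rapamycin, 25.9% in shARID1A DMSO, 18.6% in shControl rapamycin and 18% in shControl DMSO. For the 12375 genes with a promoter peak in every list the medians were 14.7% in shARID1A rapamycin, 14.3% in shARID1A DMSO, 14.3% in shControl rapamycin and 14.1% in shControl DMSO. The members were spread widely around these medians, with ZNRF3 and GLUL stronger than the median of all genes in every list, TBX3 stronger in the shControl lists alone, and the other 5 weaker in every list.

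**Figure D1:**
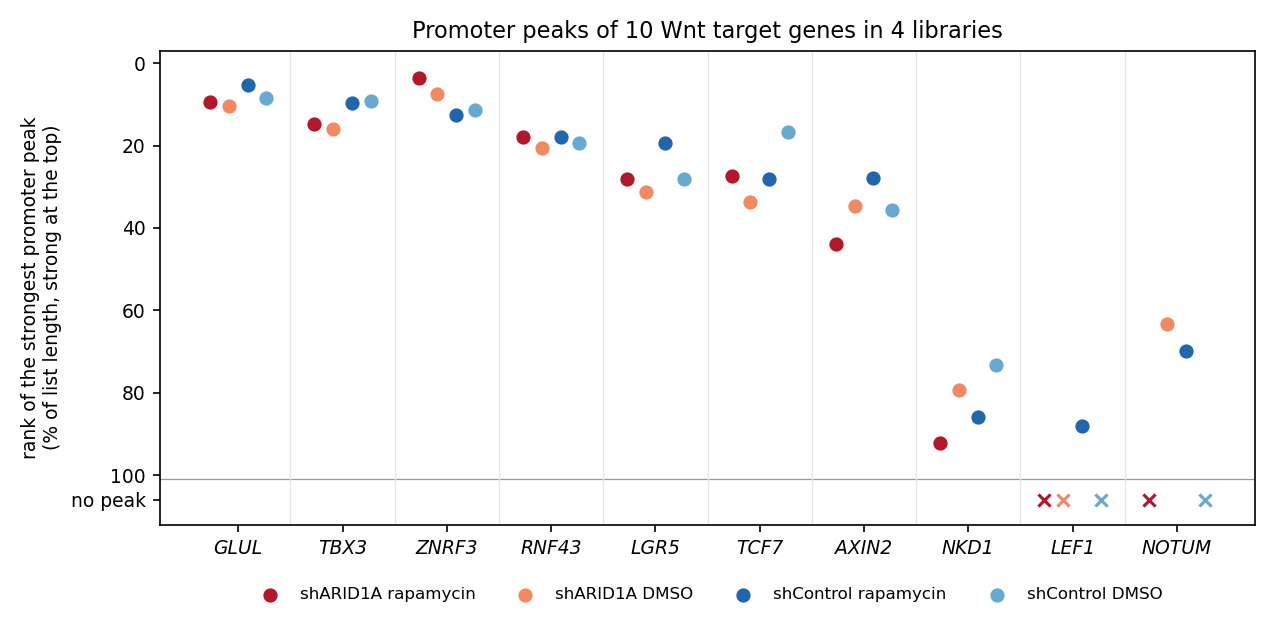
Rank of the strongest promoter peak of each gene (y axis, percent of the list's length, strong at the top) in the 4 libraries, 1 point per library, with crosses where no promoter peak was listed. ZNRF3 stood at 3.64% in shARID1A rapamycin and 11.4% in shControl DMSO, NKD1 stood between 73.4% in shControl DMSO and 92.1% in shARID1A rapamycin, and LEF1 had a peak in 1 library.

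Lists of different lengths give ranks that cannot be subtracted. Differences between libraries were therefore taken on the shared rank, the position of a region among the 31585 regions present in every list (14305 promoter and 17280 distal), again in percent. A positive shift means a weaker position in the library named first. Shifts over 10 percentage points were counted.

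LGR5 is the receptor for R-spondins, which strengthen Wnt signalling by removing ZNRF3 and RNF43 from the membrane. Its promoter peak (chr12:71438810-71440952) ranked at 28.2% in shARID1A rapamycin, 31.3% in shARID1A DMSO, 19.4% in shControl rapamycin and 28.0% in shControl DMSO. It was 1451 bp wide in shARID1A rapamycin, 1959 bp in shARID1A DMSO, 2123 bp in shControl rapamycin and 1916 bp in shControl DMSO, the broadest promoter peak of the set in every list. On the shared rank it stood at 39.8% in shARID1A rapamycin, 44.8% in shARID1A DMSO, 30.5% in shControl rapamycin and 45.8% in shControl DMSO. The shControl rapamycin library was the strong one, with a shift of -15.3 points against shControl DMSO and of -5.07 points between the shARID1A libraries.

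The other LGR5 regions lay far from the promoter. A region 62.0 kb upstream in intron 2 of the neighbouring gene TSPAN8 (chr12:71376662-71377581), whose nearest gene in the lists was LGR5, ranked at 28.8% in shARID1A rapamycin, 22.6% in shARID1A DMSO, 25.5% in shControl rapamycin and 23.1% in shControl DMSO. Its shared rank was 40.5% in shARID1A rapamycin, 32.7% in shARID1A DMSO, 40.1% in shControl rapamycin and 38.0% in shControl DMSO, closer together than the promoter. A region in LGR5 intron 1, 30.5 kb downstream of the 5′ end (chr12:71469328-71469836), was absent from both shARID1A lists and ranked at 45.0% in shControl rapamycin and 44.2% in shControl DMSO. The shARID1A DMSO list skips a peak number at this place, so only the absence from shARID1A rapamycin falls at an unbroken number. A weaker region 23.5 kb upstream (chr12:71415221-71416028) was present at 77.3% in shARID1A DMSO and 77.7% in shControl rapamycin and absent from the other lists.

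ZNRF3 and RNF43 are the related membrane ubiquitin ligases that remove Frizzled receptors. Among the strongest promoter peaks of the 8 members that had one in every list, that of ZNRF3 (chr22:28882729-28884070) was the only one with both shARID1A libraries ahead of both shControl libraries. It ranked at 3.64% in shARID1A rapamycin, 7.59% in shARID1A DMSO, 12.6% in shControl rapamycin and 11.4% in shControl DMSO. On the shared rank the values were 5.16% in shARID1A rapamycin, 11% in shARID1A DMSO, 19.8% in shControl rapamycin and 18.8% in shControl DMSO. The shift of shARID1A against shControl was -14.7 points in rapamycin and -7.79 points in DMSO, the latter under the 10 points counted. Of all shared promoter regions, 18.9% were stronger in shARID1A by over 10 points in rapamycin. The peak was 1037 bp wide in shARID1A rapamycin, 1324 bp in shARID1A DMSO, 993 bp in shControl rapamycin and 801 bp in shControl DMSO. A second, weak promoter region of ZNRF3 (chr22:28884430-28884781) was listed in shControl rapamycin alone, at 82.3%.

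ZNRF3 had 17 regions, the most of any member, and 7 of them were present in every list. The strongest distal one of these, in intron 1 and 28.2 kb downstream of the 5′ end (chr22:28911020-28912532), had the opposite order to the promoter. It ranked at 46.9% in shARID1A rapamycin, 58.9% in shARID1A DMSO, 27.1% in shControl rapamycin and 29.9% in shControl DMSO. Its shared rank was 63.8% in shARID1A rapamycin, 78.3% in shARID1A DMSO, 42.5% in shControl rapamycin and 48.7% in shControl DMSO, so that both shARID1A libraries stood below both shControl libraries. The shift of shARID1A against shControl was 21.3 points in rapamycin and 29.6 points in DMSO, larger than in 88.2% and 94.7% of all shared distal regions. The same 2 libraries therefore placed the ZNRF3 promoter higher and this intronic region lower in the shared order than their shControl counterparts. The medians over all shared regions went the same ways. For promoter regions the median shift was -1.30 points in rapamycin and -2.00 points in DMSO. For distal regions it was 2.06 points in rapamycin and 2.89 points in DMSO.

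Among the ZNRF3 regions missing from some lists, the strongest lay in an intron 139 kb downstream of the 5′ end (chr22:29021808-29022654). It was absent from shARID1A rapamycin and ranked at 64.7% in shARID1A DMSO, 34% in shControl rapamycin and 47.8% in shControl DMSO. An intron 1 region (chr22:28942267-28943509) was likewise absent from shARID1A rapamycin and ranked at 63.1% in shARID1A DMSO, 87.8% in shControl rapamycin and 73.3% in shControl DMSO. The peaks of shControl rapamycin (28942267-28942722) and shControl DMSO (28943098-28943409) did not overlap there and were joined through the shARID1A DMSO peak. A further intron 1 region (chr22:28892313-28892737) ranked at 96.2% in shARID1A rapamycin and 72.3% in shControl DMSO and was absent from the other lists. The remaining ZNRF3 regions of fewer than 4 lists stood in the weaker 50% of each list that held them. Upstream of the gene, 2 intergenic regions at 27.7 kb (chr22:28855527-28856280) and 18.5 kb (chr22:28864451-28865746) were present in every list and were chosen here after their values were seen. On the shared rank the first stood at 63.9% in shARID1A rapamycin, 81.2% in shARID1A DMSO, 77.8% in shControl rapamycin and 83.6% in shControl DMSO. The second stood at 68.3% in shARID1A rapamycin, 85.4% in shARID1A DMSO, 85.7% in shControl rapamycin and 89.5% in shControl DMSO. Both were strongest in shARID1A rapamycin, the library in which the promoter was strongest too.

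The RNF43 promoter peak (chr17:58417142-58418205), over the sequence shown above, ranked at 18.1% in shARID1A rapamycin, 20.5% in shARID1A DMSO, 17.8% in shControl rapamycin and 19.5% in shControl DMSO. Its width was 903 bp in shARID1A rapamycin, 1064 bp in shARID1A DMSO, 1003 bp in shControl rapamycin and 1006 bp in shControl DMSO. No shift of this promoter exceeded 10 points in any of the 4 comparisons.

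The distal regions of RNF43 were less even than its promoter. The strongest, in intron 1 and 25.9 kb downstream of the 5′ end (chr17:58391104-58392105), ranked at 21.4% in shARID1A rapamycin, 19.0% in shARID1A DMSO, 28.3% in shControl rapamycin and 15% in shControl DMSO. Its shared rank in shControl rapamycin was weaker by 19.6 points than in shControl DMSO, while the shift between the shARID1A libraries was 2.92 points. Another intron 1 region, 36.1 kb downstream (chr17:58380830-58381940), was chosen after its values were seen. On the shared rank it stood at 74.0% in shARID1A rapamycin, 64.4% in shARID1A DMSO, 49.4% in shControl rapamycin and 45.2% in shControl DMSO. As at the ZNRF3 intronic region, both shARID1A libraries were below both shControl libraries, with shifts of 24.6 points in rapamycin and 19.1 points in DMSO.

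An RNF43 region 29.8 kb upstream, in intron 5 of HSF5 (chr17:58446944-58447742), gave the largest shifts of the set and was also chosen after its values were seen. Its shared rank was 36.8% in shARID1A rapamycin, 74.4% in shARID1A DMSO, 83.3% in shControl rapamycin and 65.0% in shControl DMSO. The shARID1A rapamycin library stood apart on the strong side, by -46.5 points against shControl rapamycin and -37.5 points against shARID1A DMSO. Shifts farther in this direction were found in 0.191% and 0.359% of all shared distal regions. Between the shControl libraries the shift was 18.4 points in the other direction. The deposited nearest gene of this region was SETP3, and it entered the set by distance alone. Of the intron 1 regions missing from some lists, chr17:58369076-58370021 was absent from shARID1A rapamycin and ranked at 81.4% in shARID1A DMSO, 74.8% in shControl rapamycin and 85% in shControl DMSO. The region chr17:58364160-58364885 was listed at 96.6% in shARID1A DMSO and 77.7% in shControl DMSO, and chr17:58382726-58383057 at 87.5% in shARID1A DMSO alone. All 3 were among the weaker peaks of their lists and none was present in shARID1A rapamycin.

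**Figure D2:**
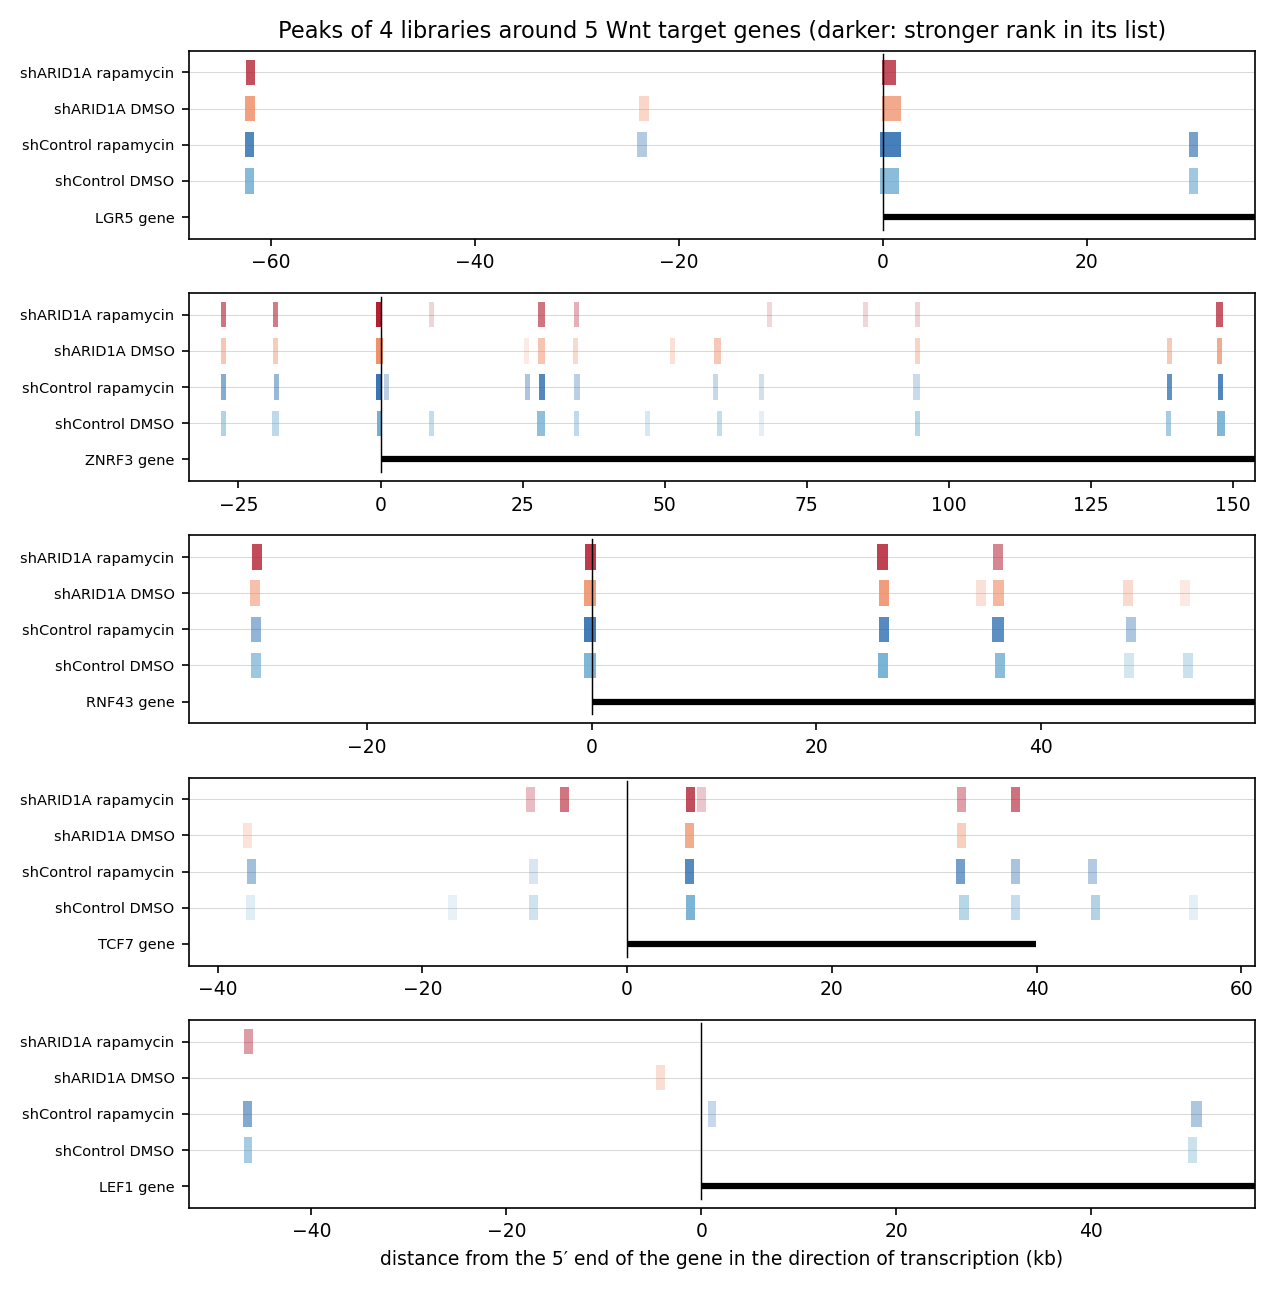
Peaks around LGR5, ZNRF3, RNF43, TCF7 and LEF1 (x axis, distance in kb from the 5′ end of the gene in the direction of transcription), 1 row per library, with a darker colour for a stronger rank in its list and the gene body as a black bar. Promoters at 0 kb are present in every row for LGR5, ZNRF3 and RNF43. Distal peaks that appear in some rows only are found at every gene shown.

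AXIN2 is a scaffold of the destruction complex and NKD1 an inhibitor that binds Dishevelled. AXIN2 had 3 regions and all were present in every list, but with an equal number of top-ranked peaks 1 was left in shControl DMSO. Its main promoter peak (chr17:65561448-65562110) ranked at 43.9% in shARID1A rapamycin, 34.6% in shARID1A DMSO, 27.9% in shControl rapamycin and 35.6% in shControl DMSO. Its shared rank was 60.2% in shARID1A rapamycin, 49.4% in shARID1A DMSO, 43.7% in shControl rapamycin and 57.0% in shControl DMSO. With rapamycin this promoter stood 10.9 points weaker in shARID1A cells and shifted by -13.3 points in shControl cells. The largest contrast was therefore between the rapamycin libraries, at 16.5 points, a shift exceeding that of 96.3% of all shared promoter regions. Against it, the shift between the DMSO libraries was -7.63 points.

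A second AXIN2 promoter region inside the gene (chr17:65559933-65561174) was weaker, at 75.4% in shARID1A rapamycin, 78.6% in shARID1A DMSO, 76.0% in shControl rapamycin and 86.6% in shControl DMSO. The only distal region, in the last intron and 29.8 kb downstream of the 5′ end (chr17:65531300-65532450), ranked at 81.4% in shARID1A rapamycin, 85.6% in shARID1A DMSO, 75.9% in shControl rapamycin and 87.4% in shControl DMSO. NKD1 had 1 region, its promoter (chr16:50547888-50548906), which ranked at 92.1% in shARID1A rapamycin, 79.4% in shARID1A DMSO, 85.9% in shControl rapamycin and 73.4% in shControl DMSO. In every list it was weaker than the strongest promoter peak of the other 7 members with one in all 4 lists, and its width was 383 bp in shARID1A rapamycin, 847 bp in shARID1A DMSO, 503 bp in shControl rapamycin and 563 bp in shControl DMSO.

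NOTUM is a secreted enzyme that inactivates Wnt ligands by removing their lipid. The peak that could count as its promoter (chr17:81959471-81960587) was centred 1.16 kb inside the gene, over intron 1 and exon 2. It ranked at 63.4% in shARID1A DMSO and 69.9% in shControl rapamycin and was absent from shControl DMSO. The shARID1A rapamycin library had a peak in the same region at 89.2%, which ended at position 81959848, more than 1 kb from the start, and so did not count as a promoter peak there. With a half-width of 2 kb this promoter was present in 3 of the 4 lists, all but shControl DMSO, and with 500 bp in none. The gains of a NOTUM promoter peak against shControl DMSO given below therefore hold at 1 kb and 2 kb but not at 500 bp. Its losses in shARID1A rapamycin hold at 1 kb alone. An intron 9 region (chr17:81954081-81954738) was absent from shARID1A rapamycin and ranked at 93.1% in shARID1A DMSO, 76.7% in shControl rapamycin and 85.4% in shControl DMSO. A region 42.8 kb upstream (chr17:82003806-82004123) was listed in shControl DMSO alone, at 90.7%.

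Most of the open DNA near NOTUM belonged to its neighbours. Promoters of other genes made up 8 of its 11 regions, among them those of PCYT2, SIRT7, MAFG, PYCR1 and ASPSCR1. The ASPSCR1 promoter (chr17:81976626-81978287) had a shared rank of 27.6% in shARID1A rapamycin, 22.1% in shARID1A DMSO, 30.8% in shControl rapamycin and 55.7% in shControl DMSO. One MAFG promoter region (chr17:81927691-81928254) stood at 40.3% in shARID1A rapamycin, 39.6% in shARID1A DMSO, 55.9% in shControl rapamycin and 73.1% in shControl DMSO. The SIRT7 promoter (chr17:81917115-81918450) stood at 38.8% in shARID1A rapamycin, 39.2% in shARID1A DMSO, 38.0% in shControl rapamycin and 62.1% in shControl DMSO. At these 3 neighbours, chosen after their values were seen, the shControl DMSO library was the weakest of the 4, as it was at PYCR1. It was the strongest at the other 3 neighbour promoters found in every list. The PCYT2 promoter (chr17:81910315-81912002) stood at 51.5% in shARID1A rapamycin, 37.4% in shARID1A DMSO, 47.0% in shControl rapamycin and 37.1% in shControl DMSO. Its ranked peaks in shARID1A rapamycin (81911388-81911838) and shControl DMSO (81910315-81911026) did not overlap. They were joined through the wider peaks of the other lists, so these ranks are of different stretches of DNA. A second MAFG promoter region (chr17:81923541-81924145) stood at 90.7% in shARID1A rapamycin, 94.4% in shARID1A DMSO, 83% in shControl rapamycin and 79.6% in shControl DMSO. The third (chr17:81926274-81927229) stood at 54.8% in shARID1A rapamycin, 51.4% in shARID1A DMSO, 42.7% in shControl rapamycin and 40.4% in shControl DMSO. The promoters next to NOTUM thus had no common order of the libraries.

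TCF7 and LEF1 encode DNA-binding partners of β-catenin, and TBX3 encodes a T-box repressor. The TCF7 promoter peak (chr5:134113970-134114748) lay 6.14 kb downstream of the gene's 5′ end, close to internal starts and to an alternative start of VDAC1, so the genes cannot be told apart there. It ranked at 27.4% in shARID1A rapamycin, 33.6% in shARID1A DMSO, 28.2% in shControl rapamycin and 16.6% in shControl DMSO. The shControl DMSO library stood apart as the strongest. On the shared rank the shift of shARID1A against shControl was 20.7 points in DMSO, exceeding that of 98.5% of all shared promoter regions, and -5.53 points in rapamycin. The shift of rapamycin against DMSO was -9.33 points in shARID1A and 16.9 points in shControl. A small second promoter region (chr5:134115351-134115702), over the CG-rich window printed above, was listed in shARID1A rapamycin alone, at 89.2%.

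TCF7 had 10 regions and 2 were present in every list. The distal one of these (chr5:134140429-134141628) lay in an intron and ranked at 68.7% in shARID1A rapamycin, 68.9% in shARID1A DMSO, 44.2% in shControl rapamycin and 62.5% in shControl DMSO. The region at the 3′ end of the gene (chr5:134145953-134146431) was absent from shARID1A DMSO and ranked at 45.7% in shARID1A rapamycin, 72.7% in shControl rapamycin and 71.6% in shControl DMSO. An intergenic region 6.12 kb upstream (chr5:134101929-134102259) was listed in shARID1A rapamycin alone, at 47.4%. In contrast, a region in the last exon of SKP1, 45.6 kb downstream of the TCF7 5′ end (chr5:134153508-134154187), was absent from both shARID1A lists and ranked at 77.7% in shControl rapamycin and 58.7% in shControl DMSO. The peaks within 50 kb of TCF7 numbered 6 in shARID1A rapamycin, 3 in shARID1A DMSO, 6 in shControl rapamycin and 8 in shControl DMSO. With an equal number of top-ranked peaks they numbered 6 in shARID1A rapamycin, 3 in shARID1A DMSO, 5 in shControl rapamycin and 5 in shControl DMSO, so that shControl DMSO no longer had the most.

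LEF1 was the only member with no region present in every list, out of 4 regions. Its promoter region (chr4:108167588-108168112) was listed in shControl rapamycin alone, at 88.1%, and lay outside the window printed above. The shARID1A DMSO list skips a number there. The strongest region, 46.5 kb upstream in an intron of LEF1-AS1 (chr4:108214988-108215930), ranked at 67.7% in shARID1A rapamycin, 51.5% in shControl rapamycin and 48.1% in shControl DMSO. It was absent from shARID1A DMSO, which skips a number here too. A region in LEF1 intron 3 (chr4:108117617-108118744) was absent from both shARID1A lists and ranked at 74.7% in shControl rapamycin and 76.5% in shControl DMSO, again with a skipped number in shARID1A DMSO. The promoter of LEF1-AS1 (chr4:108172953-108173322) was listed in shARID1A DMSO alone, at 85.4%.

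TBX3 and GLUL had the same regions in every list. The TBX3 promoter (chr12:114683018-114684926), which also holds a start of TBX3-AS1, ranked at 14.8% in shARID1A rapamycin, 16.0% in shARID1A DMSO, 9.69% in shControl rapamycin and 9.10% in shControl DMSO. Its shared rank was 20.9% in shARID1A rapamycin, 23.2% in shARID1A DMSO, 15.3% in shControl rapamycin and 15% in shControl DMSO. Both shARID1A libraries were weaker than both shControl libraries, by 5.66 points in rapamycin and 8.15 points in DMSO, under the 10 points counted. The distal TBX3 region, intergenic and 15.9 kb downstream of the 5′ end (chr12:114667660-114668974), ranked at 26.6% in shARID1A rapamycin, 16.9% in shARID1A DMSO, 22.6% in shControl rapamycin and 17.1% in shControl DMSO. It was weaker in the rapamycin library of both kinds of cell, by 13.1 points in shARID1A and 7.39 points in shControl.

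GLUL encodes glutamine synthetase, the enzyme that marks pericentral hepatocytes. Its single region, the promoter (chr1:182391061-182392414) over the CG-rich window printed above, ranked at 9.51% in shARID1A rapamycin, 10.5% in shARID1A DMSO, 5.28% in shControl rapamycin and 8.42% in shControl DMSO. The peak was 1336 bp wide in shARID1A rapamycin, 1284 bp in shARID1A DMSO, 1354 bp in shControl rapamycin and 1215 bp in shControl DMSO. On the shared rank the values were 13.5% in shARID1A rapamycin, 15.2% in shARID1A DMSO, 8.32% in shControl rapamycin and 13.9% in shControl DMSO. All 4 libraries thus placed GLUL among the strong promoters, and no shift exceeded 10 points.

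The number of peaks near the members was lower in the shARID1A lists. Within 50 kb of the main TSS, the one given by most deposited distances, the 10 genes had 31 peaks in shARID1A rapamycin, 32 in shARID1A DMSO, 38 in shControl rapamycin and 39 in shControl DMSO. The median per member was 2.5 in shARID1A rapamycin, 2.5 in shARID1A DMSO, 3 in shControl rapamycin and 2.5 in shControl DMSO, against 3 per gene over all genes in each list. The shARID1A lists were shorter as a whole, that of shARID1A DMSO with its skipped numbers. With the 44760 top-ranked peaks of each list the sums were 31 in shARID1A rapamycin, 32 in shARID1A DMSO, 36 in shControl rapamycin and 32 in shControl DMSO. What the skipped numbers held is unknown, and taking equal numbers of peaks cannot restore it. For ZNRF3 the main TSS is internal, at position 28987052, and gave 4 peaks in shARID1A rapamycin, 4 in shARID1A DMSO, 5 in shControl rapamycin and 5 in shControl DMSO. From its 5′ end the counts were 6 in shARID1A rapamycin, 6 in shARID1A DMSO, 7 in shControl rapamycin and 7 in shControl DMSO. The main TSS of TCF7 (134115625) and LEF1 (108166301) are internal too. AXIN2, NKD1, TBX3 and GLUL had the same number of peaks in each list, except AXIN2 with an equal number of top-ranked peaks. NOTUM had 8 in shARID1A rapamycin, 9 in shARID1A DMSO, 9 in shControl rapamycin and 10 in shControl DMSO.

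With shARID1A in DMSO, ZNRF3, TCF7, LEF1 and NOTUM had fewer peaks and RNF43 had more, where 31.1% of all genes had fewer and 22.7% more. Counted from its 5′ end, LEF1 had 1 peak in shARID1A DMSO and 1 in shControl DMSO, and so not fewer. With shARID1A in rapamycin, LGR5, ZNRF3, RNF43, LEF1 and NOTUM had fewer and no member had more, against 30.8% and 21% of all genes. With rapamycin in shARID1A cells, LGR5, RNF43 and NOTUM had fewer and TCF7 had more, against 28.9% and 20.4%. With rapamycin in shControl cells, TCF7 and NOTUM had fewer and LGR5 and LEF1 had more, against 28.7% and 21.8%. Counts of 10 genes are too small to be read as a departure from these shares.

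**Figure D3:**
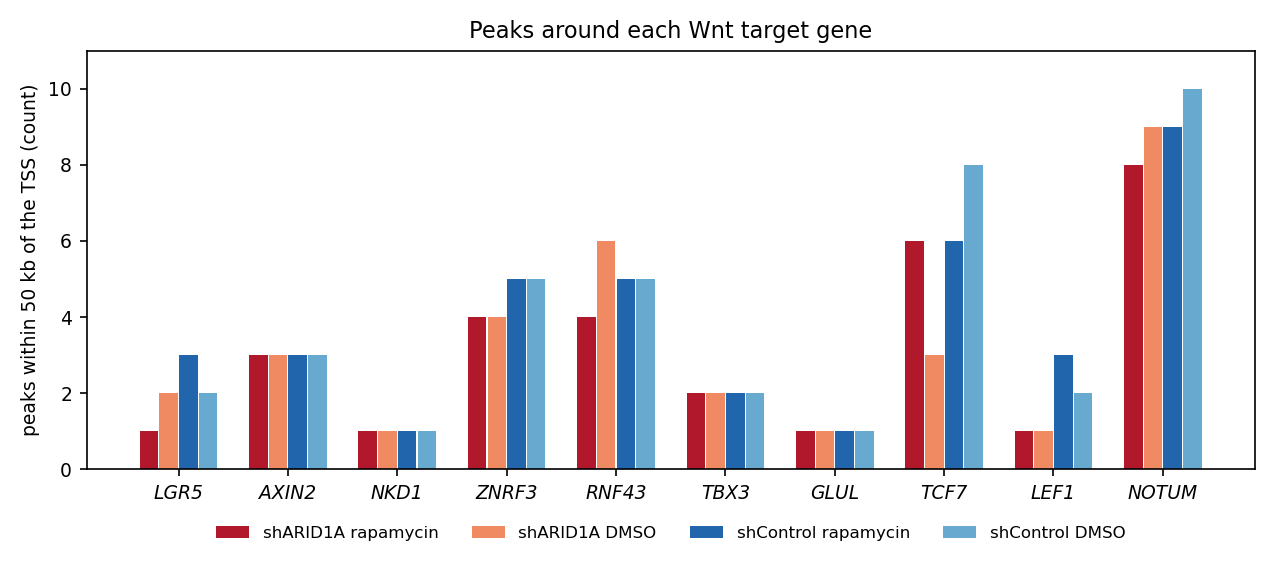
Number of peaks within 50 kb of the main TSS of each gene (y axis) in the 4 libraries (bars, 1 library each, no error bars). The bars are equal for AXIN2, NKD1, TBX3 and GLUL, and TCF7 has the widest range, with 3 in shARID1A DMSO and 8 in shControl DMSO.

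The 60 regions comprised 13 promoter regions of the members, 11 promoters of other genes and 36 distal regions. Of the distal regions 28 were in introns and 6 between genes, and 18 lay in intron 1 of the member itself, 17 of them in ZNRF3 or RNF43. All 4 lists held 9 of the 13 member promoter regions, 8 of the 11 promoters of other genes and 12 of the 36 distal regions. The distal share was 33.3% (95% exact binomial interval 18.6% to 51.0%, counting error only), against 33.6% of all distal regions. Regions of the members found in every list had a median best rank of 26.1%, and those found in fewer lists one of 77.3%. The best rank is the strongest over the lists that held a region, so presence in more lists by itself favours a stronger one. What was missing from a list was thus mostly weak elsewhere, and closed DNA cannot be told apart from a peak just under the calling threshold.

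Comparing shARID1A with shControl in DMSO, 6 of the 42 member regions in shARID1A were gained and 12 of the 48 in shControl were lost. With lists of equal length, 8 were gained and 7 lost, so that losses no longer exceeded gains. The main counts are 14.3% and 25%, close to the 17.5% and 27.7% of all regions. All 12 lost regions were distal, out of 29 (41.4%, against 37.2% of all distal regions), and 4 distal regions of 21 were gained (19.0%, against 23.2%). Of the 12, 9 were counted when places with skipped numbers were left out. TCF7 accounted for 5 of the 12, ZNRF3 for 3, LEF1 for 2, and LGR5 and NOTUM for 1 each. NOTUM gained a promoter peak and no member lost one, where 3.8% of all genes with a promoter peak gained and 2.3% lost one. Comparing shARID1A with shControl in rapamycin, 5 of 38 regions (13.2%, against 17.7% of all regions) were gained and 14 of 47 (29.8%, against 26.4%) were lost. Distal regions made up 4 of the gained, out of 19 (21.1%, against 24.2% of all distal regions), and 10 of the lost, out of 25 (40%, against 35.6%). LEF1 and NOTUM lost a promoter peak and no member gained one, against 2.99% and 2.6% of all genes. The gained and lost shares of the members were within a few points of the background in both comparisons.

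Comparing rapamycin with DMSO in shARID1A cells, 8 of 38 member regions (21.1%) were gained and 12 of 42 (28.6%) were lost, against 19.1% and 21% of all regions. TCF7 and ZNRF3 held 7 of the 8 gained regions. Of the distal regions 7 of 19 (36.8%) were gained and 9 of 21 (42.9%) lost, against 26.9% and 28.6% of all distal regions. NOTUM lost its promoter peak by the 1 kb rule and no member gained one, against 3.26% and 2.06% of all genes. In shControl cells 5 of 47 regions (10.6%) were gained and 6 of 48 (12.5%) were lost, against 18.3% and 21.7%, and with an equal number of top-ranked peaks 8 were gained and 3 lost. Distal regions gave 2 of 25 (8%) gained and 6 of 29 (20.7%) lost, against 24% and 28.6%. LEF1 and NOTUM gained a promoter peak and no member lost one, against 3.29% and 2.6% of all genes. The comparisons share libraries, so they do not count as separate evidence.

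Of the 17 shared promoter regions around the members, 9 belonged to them and 8 to other genes. With shARID1A in DMSO, 4 of the 17 were weaker by over 10 points and 3 stronger, where 6.52% of all shared promoter regions were weaker and 22.3% stronger. Of the 9 member promoters, only that of TCF7 passed this limit. With shARID1A in rapamycin 2 were weaker and 2 stronger, against 8.54% and 18.9%, and AXIN2 (weaker) and ZNRF3 (stronger) were the members among them. With rapamycin in shARID1A cells 2 were weaker and none stronger, against 10.3% and 9.52%, and AXIN2 was the member among them. With rapamycin in shControl cells 1 was weaker (TCF7) and 5 stronger, LGR5 and AXIN2 among these, against 11.2% and 15.7%.

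Of the 12 shared distal regions, shARID1A in DMSO gave 2 weaker and none stronger, the intron 1 regions of ZNRF3 and RNF43, where 31.2% of all shared distal regions were weaker and 19.8% stronger. With shARID1A in rapamycin, 3 were weaker and 4 stronger, against 30.5% and 21.7%. With rapamycin in shARID1A cells 1 was weaker, the TBX3 region, and 4 were stronger, against 19.7% and 20.1%. With rapamycin in shControl cells 3 were weaker and 1, in TCF7, was stronger, against 22.8% and 19.2%. The 4 distal regions that were stronger with rapamycin in shARID1A cells were 3 of ZNRF3 and the upstream one of RNF43.

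**Figure D4:**
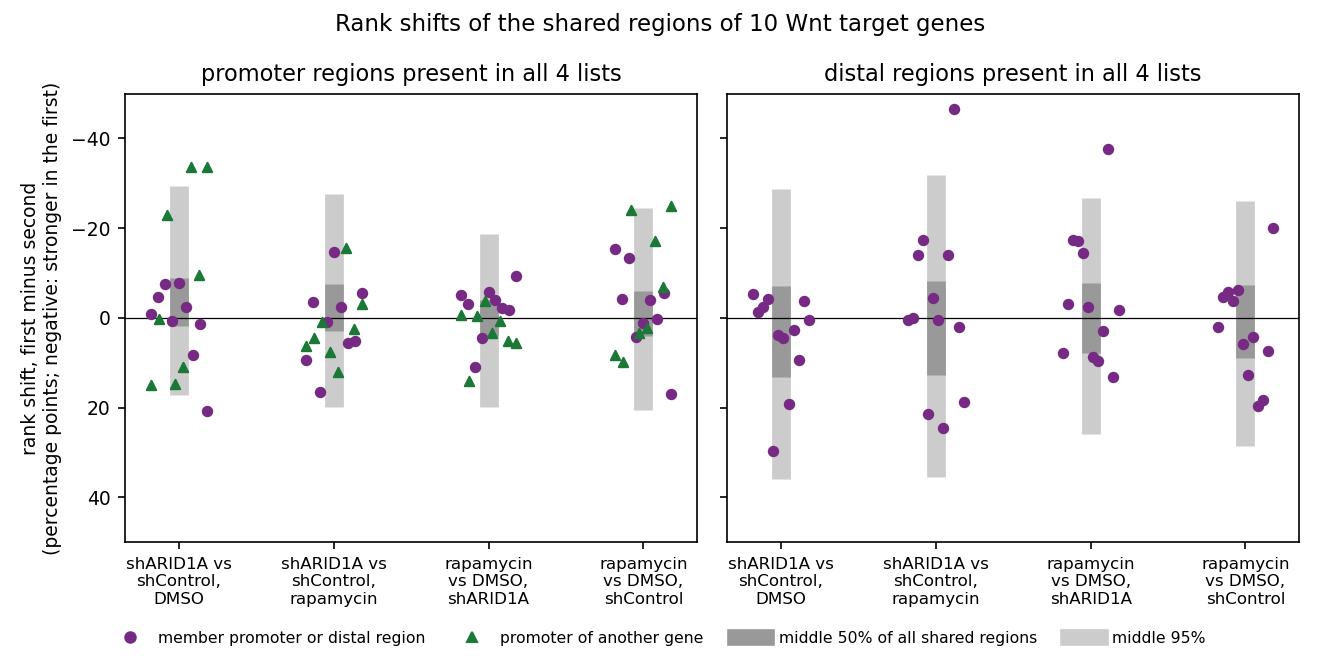
Shift in shared rank (y axis, percentage points, first minus second, negative is stronger in the library named first) of the 17 promoter regions (left) and 12 distal regions (right) around the members in 4 comparisons, 1 point per region. Circles are member promoters or distal regions, triangles are promoters of other genes, and grey bars span the middle 50% and 95% of all shared regions. The upstream RNF43 region, at -46.5 and -37.5 points, is the distal point farthest outside the grey bars.

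Some regions were listed in 1 kind of cell alone. Both shControl lists and neither shARID1A list held 4 member regions, all distal: the LGR5 intron 1 region, the SKP1 exon region near TCF7, the LEF1 intron 3 region and a weak ZNRF3 intron 1 region (chr22:28950400-28950761, at 94.2% in shControl rapamycin and 97.4% in shControl DMSO). They were 11.1% of the distal member regions, against 6.60% of all distal regions, and shARID1A DMSO skips a number at those of LGR5 and LEF1. No member region was found in both shARID1A lists alone, as were 1.81% of all regions. Another 6 member regions (10%, against 4.09% of all regions) were missing from shARID1A rapamycin alone, and that list had the fewest peaks of the 4. They were 2 of ZNRF3, 1 of RNF43, 1 of VDAC1 near TCF7 and 2 of NOTUM.

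Promoters of the rest of the pathway were compared in lists of ligands, receptors, intracellular components and zonated genes, which were drawn up with earlier results of these data known. All 11 destruction complex and Dishevelled genes and all 9 nuclear effectors, among them CTNNB1 (β-catenin) and TCF7L2, had a promoter peak in every list. Receptors and coreceptors had one for the same 9 of 11 genes in every list, with FZD8 and ROR2 at none. Extracellular inhibitors had one for 6 of 9 in every list, with SFRP2, SFRP5 and APCDD1 at none. In these 4 lists no promoter peak differed between libraries.

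Ligands and their secretion factors were the exception. Of 16 genes, 9 had a promoter peak in shARID1A rapamycin, 14 in shARID1A DMSO, 10 in shControl rapamycin and 11 in shControl DMSO. Among all genes the shares were 70.2% in shARID1A rapamycin, 71.1% in shARID1A DMSO, 70.5% in shControl rapamycin and 70.0% in shControl DMSO. Other promoter widths and equal list lengths were not tried for the ligand list. Promoter peaks of WNT5A, WNT6 and RSPO1 were listed in shARID1A DMSO alone, that of WNT3A in shControl DMSO alone and that of WNT10A in shControl rapamycin alone. WNT3 lacked one in shControl DMSO, WNT5B in shControl rapamycin and RSPO3 in shARID1A rapamycin, and WNT7B had one in shARID1A DMSO and shControl DMSO. The shARID1A DMSO list had the most ligand promoters, and it is also the one with the most skipped numbers. The meaning of these numbers is not stated, and a link between them and the ligand promoters was not tested. Whether numbers were skipped at the ligand promoters that this list lacks was not tested.

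Among 11 other Wnt-responsive or pericentral genes, 7 had a promoter peak in shARID1A rapamycin, 8 in shARID1A DMSO, 7 in shControl rapamycin and 7 in shControl DMSO. EPHB2, in shARID1A DMSO alone, made the difference. The pericentral genes CYP2E1 and CYP1A2 had no promoter peak in any list, unlike GLUL. Of 7 periportal genes, which mark hepatocytes at the other end of the lobule, 5 had one in shARID1A rapamycin, 5 in shARID1A DMSO, 4 in shControl rapamycin and 4 in shControl DMSO, and CDH1, with a peak in both shARID1A lists, made the difference. Over the 74 genes of the 7 lists, 53 (71.6%) had a promoter peak in every list, 10 in none and 11 (14.9%) in some, against 7.45% of all genes in some.

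**Figure D5:**
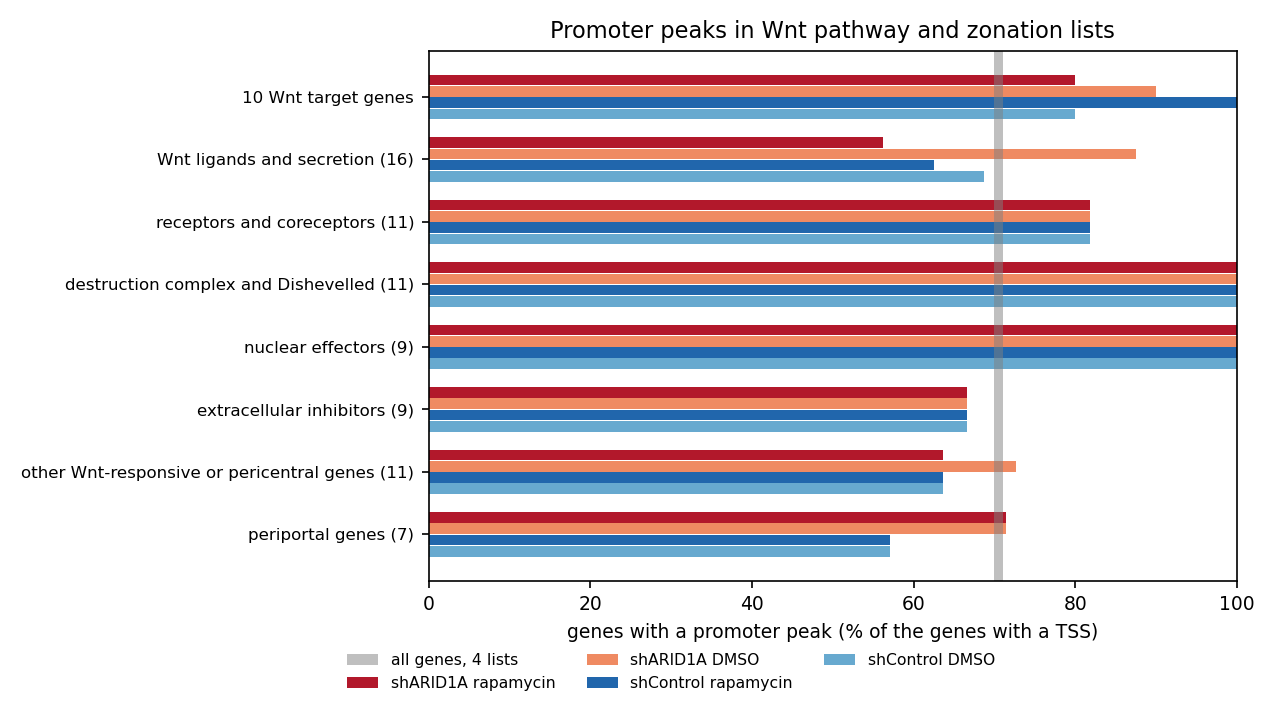
Share of genes with a promoter peak (x axis, percent of the genes with a TSS, number in brackets) in the 10 Wnt target genes and 7 further lists, 1 bar per library, with the range over all genes as a grey band. The ligand list is the one in which the bars differ most, with 9 of 16 genes in shARID1A rapamycin and 14 of 16 in shARID1A DMSO.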

How the data were processed

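The submitters' processing notes name BWA, MACS2 2.0 and the builds GRCh38 and hg38. Not stated in the sources used here are the settings, the depth and the treatment of duplicates, mitochondrial reads and the offset of the transposase. Each of the 4 deposited lists came from 1 library. Per the file headers it gives each peak's number, position and score, its annotation and the gene nearest to it with the distance. The authors' score has no stated scale, so it only ranked peaks within a list.

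Gene positions came from RefSeq tables of GRCh38.p14, and the TSS were annotated starts plus positions read from the deposited distances. A strand was available for 18520 of 20052 protein-coding genes, for 15842 from the RefSeq promoter table and for 2678 from the distances. Where both applied (11013 genes), 99.2% had the same strand. The strand of LGR5, AXIN2, NKD1, ZNRF3, TBX3 and NOTUM came from the distances, and FZD7, SLC1A2, PCK1, VWF and DCN had no usable TSS. Peaks overlapping by at least 1 bp were merged, a region being promoter within 1 kb of a TSS and otherwise distal. It was lost or gained in a comparison if only 1 of the 2 lists held it. Comparisons were shARID1A against shControl in rapamycin and in DMSO, and rapamycin against DMSO in shARID1A and in shControl. Where a list skipped peak numbers between neighbouring peaks, the place was recorded.

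Members and gene lists were chosen with earlier results of these data known. One hepatocyte marker is not reported here. The naming rule took all member promoters, up to 3 distal regions per member that were missing from some list, by best rank, the strongest distal region in all 4 lists, and pathway genes whose promoter peak differed. Tools were matplotlib 3.10.9 for figures, and SciPy 1.17.1 (exact binomial intervals), NumPy 2.4.6 and pandas 2.3.3 under Python 3.11.15. The region merging and counting were checked on simulated peaks.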

Additional observations from a re-analysis of the deposited data

Results flagged for a closer look

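At 2 of the 29 shared regions around the members, rapamycin went with shifts of over 10 points in opposite directions in the 2 kinds of cell, and the difference was not tested, since each group was 1 library. For the AXIN2 promoter the shift of rapamycin against DMSO was 10.9 points in shARID1A cells and -13.3 points in shControl cells, a difference of 24.1 points. For the region upstream of RNF43 in HSF5 intron 5 it was -37.5 points in shARID1A cells and 18.4 points in shControl cells, a difference of -55.9 points. Over all 31585 shared regions, 1964 (6.22%) had such opposite shifts with rapamycin.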

How the results depend on the processing

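No paired analysis was possible because each group was 1 library, and for the same reason no library could be left out. Of the main counts under the alternatives, 81 stayed within 1.5 times and 27 did not. Peaks near the members in shARID1A rapamycin, shARID1A DMSO, shControl rapamycin and shControl DMSO summed to 11, 13, 13 and 11 within 10 kb, to 60, 63, 75 and 73 within 100 kb, and to 18, 15, 18 and 19 in the stronger 50% of each list, so both shARID1A sums were below both shControl sums within 100 kb, but not within 10 kb or in the stronger 50%. With the nearest-gene column alone, lost regions numbered 7 for shARID1A in rapamycin, 6 for shARID1A in DMSO, 6 for rapamycin in shARID1A and 1 for rapamycin in shControl. With an equal number of top-ranked peaks, 8 were gained and 7 lost for shARID1A in DMSO, and 8 gained and 3 lost for rapamycin in shControl. Counting shifts over 20 points left 1 stronger and 2 weaker for shARID1A in rapamycin, and 3 stronger and 2 weaker for shARID1A in DMSO. It left 1 stronger and 0 weaker for rapamycin in shARID1A, and 2 stronger and 0 weaker for rapamycin in shControl. On ranks in percent of list length, 2 were stronger and 6 weaker for shARID1A in rapamycin. Promoter counts stayed within 1.5 times under every width, an equal number of peaks and the stronger 50%, but which members had one did not: at 500 bp TCF7 kept it in shARID1A rapamycin alone and NOTUM in no list, and in the stronger 50% NKD1, LEF1 and NOTUM had none. The alternatives of the gene's 5′ end as TSS, gained regions at skipped numbers left out and promoters of other genes left out were chosen after seeing the data, and moved no main count by over 1.5 times. Unknown depth and 1 library per group limit every difference given here, and weak peaks near the calling threshold most.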
